A study of Chelon labrosus with 24 samples.

Results

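The comparison described here set livers taken at the second sampling from the outer part of a polluted harbour against livers taken there at the first sampling. It used 12 of the 24 arrays of the study, 6 of the second sampling (label day 21, fish numbered 2 to 7) and 6 of the first (label day 5, fish 1 to 5 and 8), chosen by their sampling and site labels alone. The animals were immature thicklip grey mullets (Chelon labrosus), a coastal fish, held in cages in Pasaia harbour, and all 12 samples were liver. The labels name no strain, sex or treatment, and no uncaged fish are labelled among the samples used here, so each sampling is known only against the other. The series text instead puts the same samplings at 15 and 3 days. They are therefore called the second and the first sampling. Another 12 arrays hold inner harbour livers from the same 2 samplings and are used below to show where the outer harbour differed. These inner harbour arrays also entered the filter on dim probes and the spread behind every standard error and p-value of the tests on probes. The labels number the samples without stating that each is a separate animal. They are called fish, and the p-values measure only the spread between these samples.

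The fish liver converts and excretes foreign compounds, makes bile acids and plasma proteins, and stores and releases sugar and fat. Biotransformation runs in phases, in which monooxygenases add a reactive group, transferases such as glutathione S-transferase conjugate the product, and transporters of the ABC family export it. Peroxisomes in the same cells shorten fatty acids, which yields hydrogen peroxide that catalase breaks down. Fish livers are widely used to follow pollution through genes of these pathways.

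The array carries 638 custom probes for 158 genes, and each gene is named as the array design spells it. A level is the log2 spot signal of a probe minus the array's 75th percentile, so levels of different probes cannot be set against each other. Dim probes were left out of the tests, which needed 50% or more of the spots of a probe to be well above background on 6 or more of the 24 arrays, and 476 probes in 128 genes passed. Of the 638 probes, 366 were well above background on all 12 outer harbour arrays and 130 on none. Calls were made in limma's two-sided test at an adjusted p under 0.05 (Benjamini-Hochberg, over all 476 probes). The number of arrays limits the precision, with a median standard error of 0.25 log2 units.

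Of the 12 arrays, outer harbour fish 4 of the second sampling stood apart, with 371 probes well above background against 425 to 455 on the other second sampling arrays. The mean was 427 ± 29.3 probes at the second sampling and 470.5 ± 9.73 at the first (SD, n = 6 each). The exact two-sided permutation p was 0.00216, the smallest that 6 arrays against 6 allow, and 0.0130 after Benjamini-Hochberg adjustment over 6 array measures. Without fish 4 the difference was -32.3 probes, against -43.5 with it. Its part in the results was not tested beyond leaving that array out, which gave 13 probes called higher and 57 called lower. On each of the 3 slides the second sampling filled one row of arrays and the first sampling the other, at both sites. Sampling and array row therefore cannot be told apart. Every slide held 2 arrays of each group, so slide and sampling were balanced.

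The sequences below show what the results rest on. Each probe is a run of 55 bases, and they are printed 5′ to 3′ as the deposited scanner files hold them. Capitals mark a stretch of 20 or more bases that all probes of that gene share, and probes of genes without one are in lower case. The probes carry no genome position, so none is given. The ApoE probes show the usual case on this array, in which the probes of a gene are shifted by a few bases and read the same stretch of the transcript. The phosphoenolpyruvate carboxykinase probes show the exception, with 4 stretches that share no run of 20 bases.
ApoE probe A: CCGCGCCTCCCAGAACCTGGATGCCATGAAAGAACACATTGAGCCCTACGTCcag
ApoE probe B: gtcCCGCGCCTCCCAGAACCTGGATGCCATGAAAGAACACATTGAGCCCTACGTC
Phosphoenolpyruvate carboxykinase probe A: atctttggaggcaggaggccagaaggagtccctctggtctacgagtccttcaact
Phosphoenolpyruvate carboxykinase probe B: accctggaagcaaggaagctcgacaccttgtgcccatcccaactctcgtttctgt
Phosphoenolpyruvate carboxykinase probe C: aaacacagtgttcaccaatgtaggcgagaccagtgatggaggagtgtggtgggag
Phosphoenolpyruvate carboxykinase probe D: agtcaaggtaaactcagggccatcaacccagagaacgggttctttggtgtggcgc
Catalase: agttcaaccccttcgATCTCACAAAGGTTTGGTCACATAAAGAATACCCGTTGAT
AOX: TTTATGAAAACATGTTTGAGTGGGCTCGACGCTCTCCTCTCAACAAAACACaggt
PMP70: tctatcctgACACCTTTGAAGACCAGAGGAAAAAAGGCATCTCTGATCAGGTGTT
GST: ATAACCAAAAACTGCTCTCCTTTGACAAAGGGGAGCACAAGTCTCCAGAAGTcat
Cu-Zn_SOD: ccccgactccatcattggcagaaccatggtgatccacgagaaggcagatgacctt
CYP7: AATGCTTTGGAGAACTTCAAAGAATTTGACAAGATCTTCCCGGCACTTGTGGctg
A site here joins probes that share 20 or more bases, directly or by way of another probe. Of the 128 tested genes, 95 were read at 1 such site and 33 at 2 or more. Some sites are chains, as for Cu-Zn_SOD and THIO, whose probes all share a run of only 5 and 18 bases. Agreement between the 4 probes of a gene is therefore mostly agreement within 1 site. Over the 183 sites, 6 held a probe called higher and 21 a probe called lower. The probes that appear on the array under 2 names or identifiers with the same sequence gave differences that lay 0.005 to 0.030 log2 units apart in the 8 pairs (rounded).

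Between the samplings more was called lower than higher. Of the 476 probes, 79 were called (16.6%), 15 of them higher at the second sampling (3.15%, in 6 genes) and 64 lower (13.4%, in 18 genes), with 130 at an unadjusted p under 0.05. Among the 128 genes, 4.69% had a probe called higher and 14.1% a probe called lower. By the brightest probe of each gene, 3 genes were higher (2.34%) and 17 lower (13.3%). The 6 fish of one sampling lay wholly apart from the 6 of the other on 52 probes (10.9%), with the second sampling above on 15 (3.15%) and below on 37 (7.77%). The median difference over all tested probes was -0.08 log2 units. The predominance of lower calls depended on the scaling: 81.0% of the calls were lower as reported, against 61.6% with quantile normalization, 61.8% in the authors' deposited log2 values, 67.8% with the 75th percentile of detected probes, 44.6% with the array median, 24.0% with the median of detected probes and 87.5% with spike-ins. These scalings moved the median difference by between -0.27 and 0.34, and 7 of the 24 called genes were called under all 7 other scalings. Those 7 were GST, Cu-Zn_SOD, ApoE, phosphoenolpyruvate carboxykinase, catalase, AOX and PMP70, and the grid of changes by scaling shows them as the rows with a dot in every column.

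**Figure D1:**
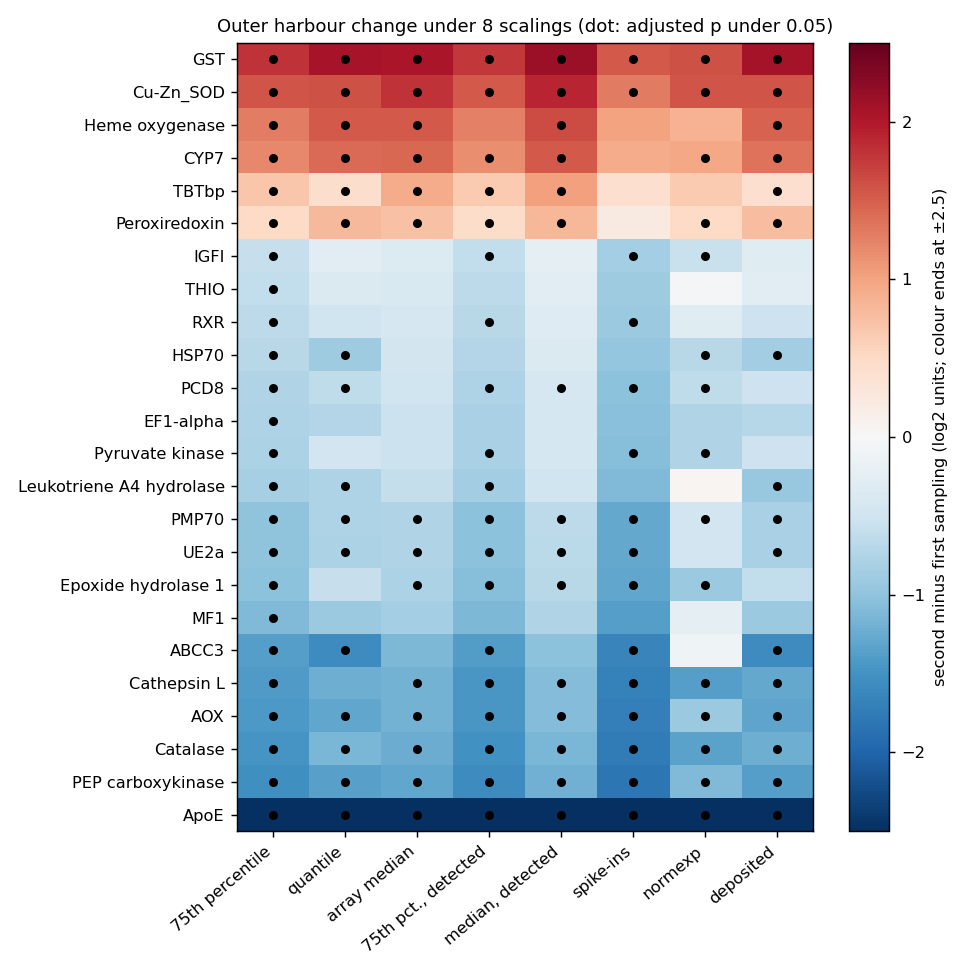
Difference between the second and the first sampling in the outer harbour (colour, log2 units, ends at ±2.5) for the 24 called genes (rows) under 8 ways of scaling the arrays (columns). A dot marks an adjusted p under 0.05. GST, Cu-Zn_SOD, ApoE, PEP carboxykinase, Catalase, AOX and PMP70 carry a dot in all 8 columns, while MF1, EF1-alpha and THIO carry one only under the 75th percentile.

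Among the genes of conjugation and efflux, GST rose and the transporter ABCC3 was called lower. GST, named for the glutathione S-transferases that couple glutathione to reactive compounds, had levels from -2.15 to -1.38 with a median of -1.65 at the second sampling and from -3.83 to -3.22 with a median of -3.43 at the first. Every fish of the second sampling lay above every fish of the first. The rise was 3.48-fold (log2 difference 1.80 ± 0.20, SE, n = 6 and 6, limma adjusted p = 3.91e-07), with differences of 1.98, 1.90 and 1.51 within the 3 slides. ABCC3, which bears the name of an exporter of conjugates, had levels from -9.26 to -8.00 with a median of -8.67 at the second sampling and from -8.15 to -5.94 with a median of -7.32 at the first. Its single tested probe was well above background in 1 of 6 fish at the second sampling and in 5 of 6 at the first, so the size of its difference (-1.37 ± 0.44, limma adjusted p = 0.0317) rests largely on background signals. The groups overlapped, and the call was lost when any 1 of 6 arrays was left out (-1.55 to -1.11 over all 12 such fits). UGT, named for the enzymes that conjugate with glucuronic acid, had 0.25 ± 0.32 and was not called, nor were the efflux pumps ABC-b1 (0.23 ± 0.33) and ABCC2 (0.41 ± 0.27). Of the 5 tested members of this list 1 was higher and 1 lower, where 2.34% of all 128 genes were higher and 13.3% lower by the brightest probe, and the list median of 0.25 stood beside -0.04 over all genes.

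Of 9 tested phase I genes 1 fell and 8 were not called, with a median difference of 0.21, and 1 of 9 is near the 13.3% of all genes called lower by the brightest probe. The gene that fell was epoxide hydrolase 1, which hydrolyses reactive epoxides. Its levels ran from -2.32 to -1.43 with a median of -1.88 at the second sampling and from -1.35 to -0.22 with a median of -0.93 at the first. The fish of the samplings did not overlap, and the fall was 2.04-fold (-1.03 ± 0.26, limma adjusted p = 0.00623). CYP1A1, a monooxygenase that dioxin-like compounds induce by way of the aryl hydrocarbon receptor, had levels from 1.06 to 2.01 with a median of 1.52 at the second sampling and from 0.61 to 2.24 with a median of 1.22 at the first. The second sampling fish all lay within the range of the first. The difference of 0.21 had a 95% interval from -0.37 to 0.79. CYP1A1 was read at 4 sites, none with a called probe, and their differences ran from 0.0009 to 0.21. CYP2_N had 0.94 ± 0.42 (limma adjusted p = 0.143) and CYP3 0.39 ± 0.17 (limma adjusted p = 0.124). Both were called higher under the median of detected probes, and CYP3 also under the array median. AHR2, a receptor of dioxin-like compounds, was read at 3 sites that went different ways, with differences of -0.21 and -0.19 on the probes of one site and 0.47 and 0.46 at the others. None of its probes was called as reported, while its brightest was called higher under 4 of the 7 other scalings. CYP1Bb, CYP1_C and AHRnt1 were well above background on none of the 12 arrays.

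In the antioxidant list of 6 tested genes, 1 was higher and 1 lower by the brightest probe (2.34% and 13.3% over all genes), with a median of 0.42. The lower gene was catalase, which is also counted in the peroxisome and PPAR list and is described there. Cu-Zn_SOD, the cytosolic superoxide dismutase that turns superoxide into hydrogen peroxide, had levels from 3.26 to 3.55 with a median of 3.40 at the second sampling and from 1.36 to 2.46 with a median of 1.68 at the first. No first sampling fish reached the lowest of the second, and the fish of the second sampling spread less (SD 0.13 against 0.48). The rise was 2.97-fold (1.57 ± 0.19, limma adjusted p = 1.13e-06). Within the slides it was 1.96, 1.88 and 0.88. The smallest value came from slide 3, which holds first sampling fish 5 and 8, the highest of their group for this gene.

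Heme oxygenase (Heme_oxigenase32), an enzyme of heme breakdown that oxidative stress induces, was called higher on 1 of its 4 probes. On that probe the levels ran from -4.20 to -2.69 with a median of -3.83 at the second sampling and from -6.01 to -4.25 with a median of -4.63 at the first. On that probe the groups did not overlap, and fish 5 and 8 were the lowest of the first sampling. On the other probes of the gene, none of them called, the groups overlapped. The difference was 1.28 ± 0.44 (limma adjusted p = 0.0439), the 4 probes ran from 1.22 to 1.28, and the call was lost when any 1 of 9 arrays was left out (1.06 to 1.42 over all 12 such fits). Peroxiredoxin, a thiol peroxidase, had 0.49 ± 0.16 (limma adjusted p = 0.0414), again on 1 of 4 probes. It lost its call when any 1 of 8 arrays was left out (0.41 to 0.55 over all 12 such fits). With the outer harbour arrays alone peroxiredoxin was not called (limma adjusted p = 0.0635). Glutathione peroxidase (0.32 ± 0.30) and XDh (0.51 ± 0.40) were not called.

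**Figure D2:**
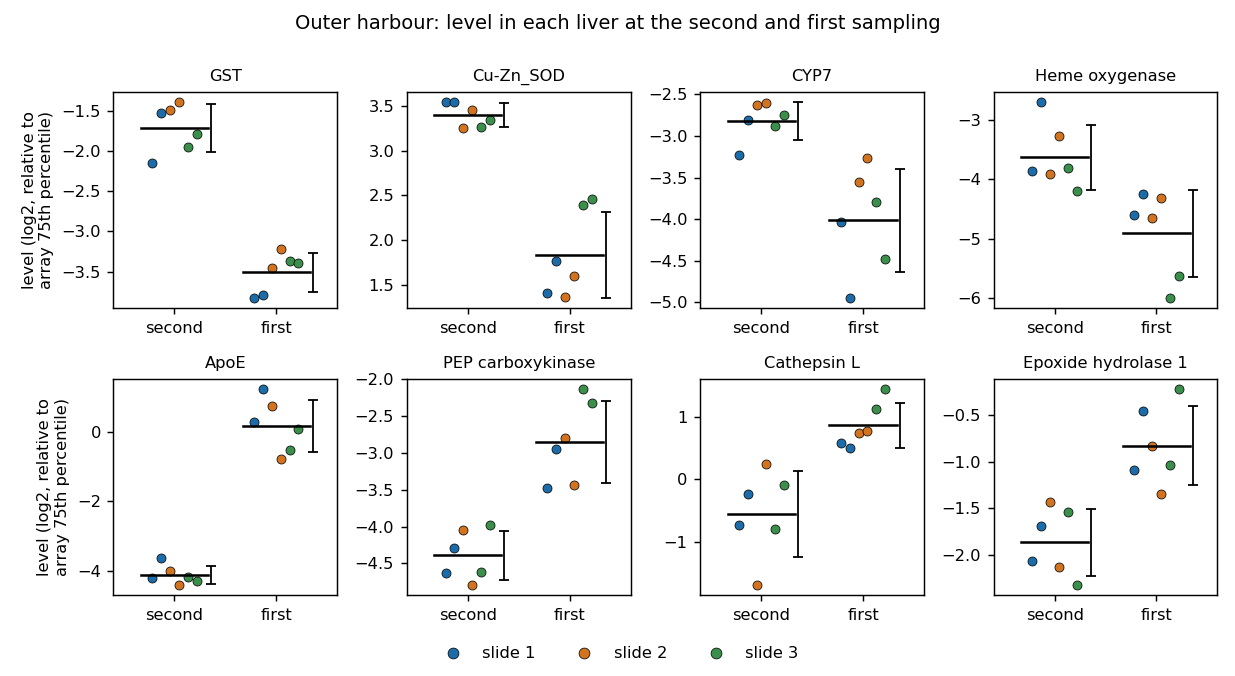
Level of 8 genes in each outer harbour liver (y axis, log2 units relative to the array's 75th percentile, a separate range for each gene) at the second (left) and the first (right) sampling. Points are fish coloured by slide, the line is the group mean and the bar its SD (n = 6 each). In each of the 8 panels the 2 groups do not overlap, with ApoE at -4.41 to -3.63 at the second sampling and -0.78 to 1.23 at the first. This holds for the plotted probes, and on other probes of heme oxygenase and CYP7 the groups overlapped. The panels were picked from the 24 called genes, others of which overlapped. Of all 476 tested probes 10.9% showed no overlap.

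The largest difference of all tested genes was in the list of bile acid, sterol and lipoprotein genes. ApoE, an apolipoprotein that carries lipid in plasma, had levels from -4.41 to -3.63 with a median of -4.17 at the second sampling and from -0.78 to 1.23 with a median of 0.17 at the first. All 6 fish of the second sampling lay far below all 6 of the first, and they were close to each other. The fall was 19.4-fold (-4.28 ± 0.39, limma adjusted p = 1.48e-08), with -4.66, -4.18 and -3.99 within the slides. Since liver was measured in bulk, fewer cells of a type and less RNA per cell cannot be told apart, here or below. The 4 ApoE probes share 52 bases, as printed above, so this fall is known at 1 site of the transcript.

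CYP7, a cytochrome P450 family of bile acid synthesis, went the other way in the same list. Its levels ran from -3.23 to -2.60 with a median of -2.78 at the second sampling and from -4.95 to -3.27 with a median of -3.91 at the first. The groups did not overlap, by a small margin between the lowest fish of the second and the highest of the first. On another of its probes they overlapped. The rise was 2.29-fold (1.20 ± 0.29, limma adjusted p = 0.00549), and the call was lost under spike-in scaling. ABC-B11, the bile salt exporter (0.09 ± 0.20), the plasma apolipoprotein Apo_A1 (0.01 ± 0.20) and CYP_scc-24 (-0.44 ± 0.46) were not called. Of the 5 tested members 1 rose and 1 fell, where 2.34% of all 128 genes were higher and 13.3% lower by the brightest probe. The list median was 0.01, against -0.04 over all genes.

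Of the 7 tested members of the peroxisome and PPAR list, 5 were called lower (catalase, AOX, PMP70, MF1 and RXR), 0 higher and 2 not, against 13.3% lower among all genes, and the list median was -1.002 against -0.04. With quantile normalization, the array median, the median of detected probes, normexp or the deposited values, 3 of the 7 were called lower. With the 75th percentile of detected probes or spike-ins 4 were. The list was drawn up with results of these arrays known, so its direction is a description. Catalase had levels from -3.11 to -2.18 with a median of -2.63 at the second sampling and from -1.50 to -0.82 with a median of -1.18 at the first. No fish overlapped between the samplings, and the fall was 2.79-fold (-1.48 ± 0.24, limma adjusted p = 1.13e-04), with -1.79, -1.50 and -1.15 within the slides.

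AOX, named for the acyl-CoA oxidase that starts fatty acid shortening in the peroxisome, had levels from -5.45 to -4.27 with a median of -4.80 at the second sampling and from -4.33 to -2.24 with a median of -3.51 at the first. A single first sampling fish, number 1, lay within the range of the second. The fall was 2.69-fold (-1.43 ± 0.28, limma adjusted p = 8.39e-04). PMP70, a transporter of the peroxisome membrane, had levels from -6.33 to -5.06 with a median of -5.55 at the second sampling and from -4.91 to -3.66 with a median of -4.75 at the first. The groups did not overlap, and fish 4 stood above the rest of the first sampling. The difference was -1.002 ± 0.24 (limma adjusted p = 0.00468), with -0.59, -1.86 and -0.56 within the slides and -0.82 without fish 4 of the first.

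The remaining members of the list were less clear. MF1 has no description in the files, and its place in this list is an assumption from its name. It had levels from -8.53 to -6.12 at the second sampling and from -6.23 to -5.31 at the first, with medians of -6.82 and -5.87. Its probe was well above background in 4 of 6 fish at the second sampling and in 6 of 6 at the first, so its fall of 1.09 (SE 0.33, limma adjusted p = 0.0245) rests in part on background signals, and no other scaling called it. It was not called without second sampling fish 2 (-0.78) or first sampling fish 3 (-0.99), which left 4 called genes in the list. RXR, the receptor that pairs with PPARs on DNA, fell by 0.66 (SE 0.18, limma adjusted p = 0.0113), and its groups overlapped at their edges only. Of the 7 other scalings 2 called RXR, with differences from -0.94 to -0.29 over all 7. The receptors PPARa (-0.80 ± 0.51), which drives peroxisomal genes in mammals, and PPARg (0.52 ± 0.30) were not called, and PPARa was well above background in 3 of 6 fish at the second sampling and in 5 of 6 at the first.

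**Figure D3:**
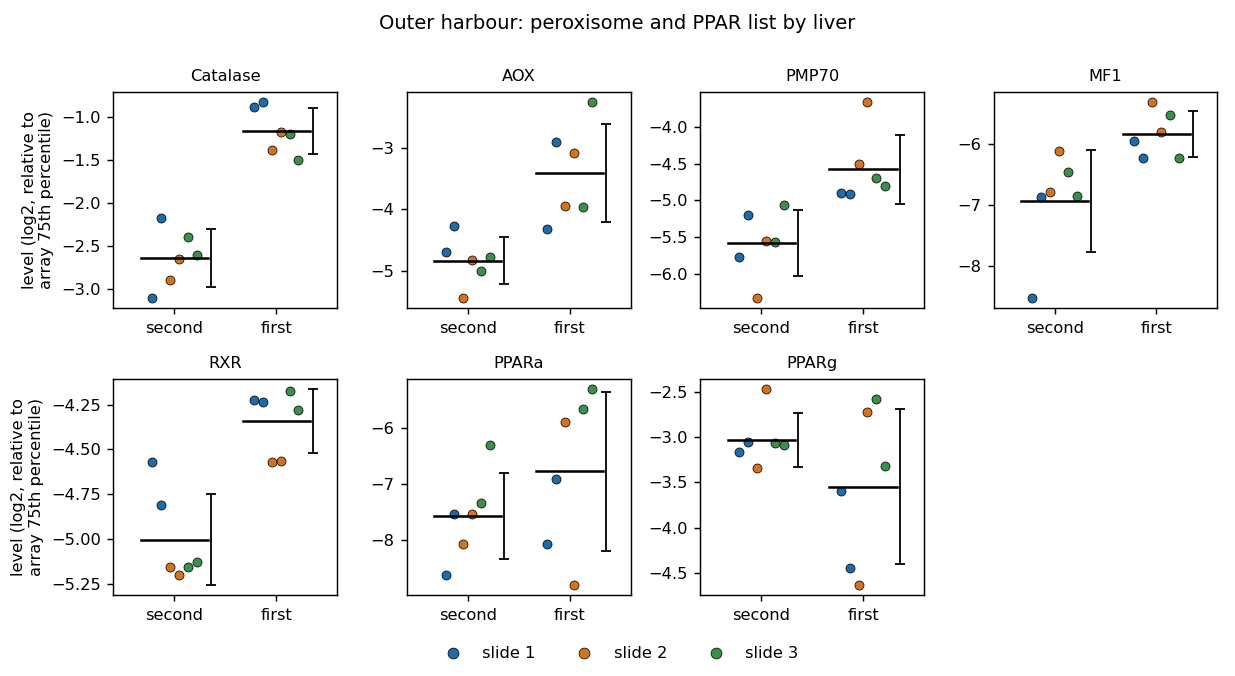
Level of the 7 tested genes of the peroxisome and PPAR list in each outer harbour liver (y axis, log2 units relative to the array's 75th percentile) at the second (left) and the first (right) sampling, with points for fish coloured by slide, lines for group means and bars for SD (n = 6 each). Catalase and PMP70 show no overlap, AOX overlaps through 1 first sampling fish, and PPARa and PPARg overlap widely.

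In the carbohydrate list 2 of 4 tested genes fell and 0 rose, where 13.3% of all genes were lower and 2.34% higher by the brightest probe. Phosphoenolpyruvate carboxykinase, a control point of glucose synthesis, had levels from -4.80 to -3.97 with a median of -4.45 at the second sampling and from -3.47 to -2.13 with a median of -2.87 at the first. The groups did not overlap, and the fall was 2.91-fold (-1.54 ± 0.36, limma adjusted p = 0.00430). Its 4 separate sites, printed above, were each called, with differences from -1.67 to -1.42. By the joining rule above it was the only one of the 24 called genes to be read at more than 1 site. The Cu-Zn_SOD probes were joined into 1 site only as a chain. Pyruvate kinase, which closes glycolysis, had levels from -1.21 to -0.73 with a median of -0.91 at the second sampling and from -0.69 to 0.37 with a median of -0.17 at the first. The gap between the groups was narrow, the fall was 0.79 (SE 0.21, limma adjusted p = 0.00857), and 3 of the 7 other scalings called it. Neither gene named pgi was called (0.23 ± 0.19 and 0.13 ± 0.27).

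Cathepsin L, a lysosomal protease, had levels from -1.70 to 0.24 with a median of -0.49 at the second sampling and from 0.51 to 1.45 with a median of 0.76 at the first. The groups did not overlap and the fall was 2.67-fold (-1.42 ± 0.39, limma adjusted p = 0.0127). The other tested gene of the proteolysis list, spelled proteasome, had -0.42 ± 0.23 and was not called.

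Among stress, growth and reference genes the changes were smaller. HSP70, an inducible chaperone, had levels from 1.34 to 2.06 with a median of 1.86 at the second sampling and from 1.99 to 3.26 with a median of 2.45 at the first. The ranges overlapped slightly, and the fall was 0.70 (SE 0.22, limma adjusted p = 0.0267). HSP70 lost its call when any 1 of 5 arrays was left out (-0.80 to -0.55 over all 12 such fits). Its relatives HSC70 (-0.64 ± 0.24, limma adjusted p = 0.0779) and HSP90 (-0.12 ± 0.23) were not called. Of 3 heat shock genes 1 fell, and of 10 tested genes of growth, cell cycle and death 2 fell, where 13.3% of all genes were called lower. The 2 were IGFI, the growth hormone's messenger to the tissues (-0.58 ± 0.19, limma adjusted p = 0.0344), and PCD8 (-0.75 ± 0.16, limma adjusted p = 0.00215). IGFI was not called when any 1 of 6 arrays was left out (-0.66 to -0.45 over all 12 such fits). Of the 7 other scalings 3 called IGFI, 3 called HSP70 and 5 called PCD8. With the outer harbour arrays alone IGFI was not called (limma adjusted p = 0.0701). EF1-alpha, a translation factor often used for normalization, fell by 0.77 (SE 0.25, limma adjusted p = 0.0372) and was called on all 5 probes, which read 1 site. It was called under no other scaling and not when any 1 of 8 arrays was left out (-0.89 to -0.67 over all 12 such fits). Of the other reference genes, beta-actin (0.17 ± 0.20) and 18S rRNA (0.24 ± 0.24) were not called.

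A few further genes were called with no list of their own. UE2a fell by 1.00 (SE 0.28, limma adjusted p = 0.0124). THIO had -0.62 ± 0.21 on 1 of 4 probes, at the edge of the threshold (limma adjusted p = 0.0485). THIO was not called when any 1 of 9 arrays was left out (-0.69 to -0.52 over all 12 such fits). TBTbp was called higher on 1 of 4 probes (0.69 ± 0.22, limma adjusted p = 0.0323), with levels from 6.44 to 7.20 at the second sampling and from 5.32 to 6.75 at the first. It was not called when any 1 of 5 arrays was left out (0.55 to 0.84 over all 12 such fits). With the outer harbour arrays alone TBTbp was not called (limma adjusted p = 0.101). The difference was 1.18 and 1.07 on slides 1 and 2 but -0.17 on slide 3, where first sampling fish 5 and 8 were again the highest of their group. Leukotriene A4 hydrolase, counted with the immune genes, had -0.83 ± 0.24 on 1 of 4 probes and was well above background in 1 of 6 fish at the second sampling and in 6 of 6 at the first. It was not called without second sampling fish 2 (-0.76) or first sampling fish 3 (-0.74), 3 of the 7 other scalings called it, and with normexp its direction turned (0.048).

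Many pollution and immune genes were not called. Over all 128 genes only 2.34% were called higher and 13.3% lower by the brightest probe, so a short list with none called is close to these shares. In the acute phase, complement and immunity list 0 of 10 tested genes was called by its brightest probe, with a median of -0.33, and the same held for 8 mitochondrial genes (median 0.13), 4 estrogen responsive genes, 3 genes of iron and metals, 2 other nuclear receptors, 3 coagulation genes (median 0.05) and 2 virus induced genes. Metallothionein (MT), which binds metals, had levels from 3.64 to 4.84 at the second sampling and from 4.05 to 5.85 at the first, both with a median of 4.38. Its difference of -0.34 had a 95% interval from -1.09 to 0.42. Choriogenin L, an egg envelope protein made under estrogen, was well above background in 0 of 6 fish at the second sampling and in 3 of 6 at the first on its brightest probe, so no size is resolved, and VTG-A and VTG-B were well above background on none of the 12 arrays.

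**Figure D4:**
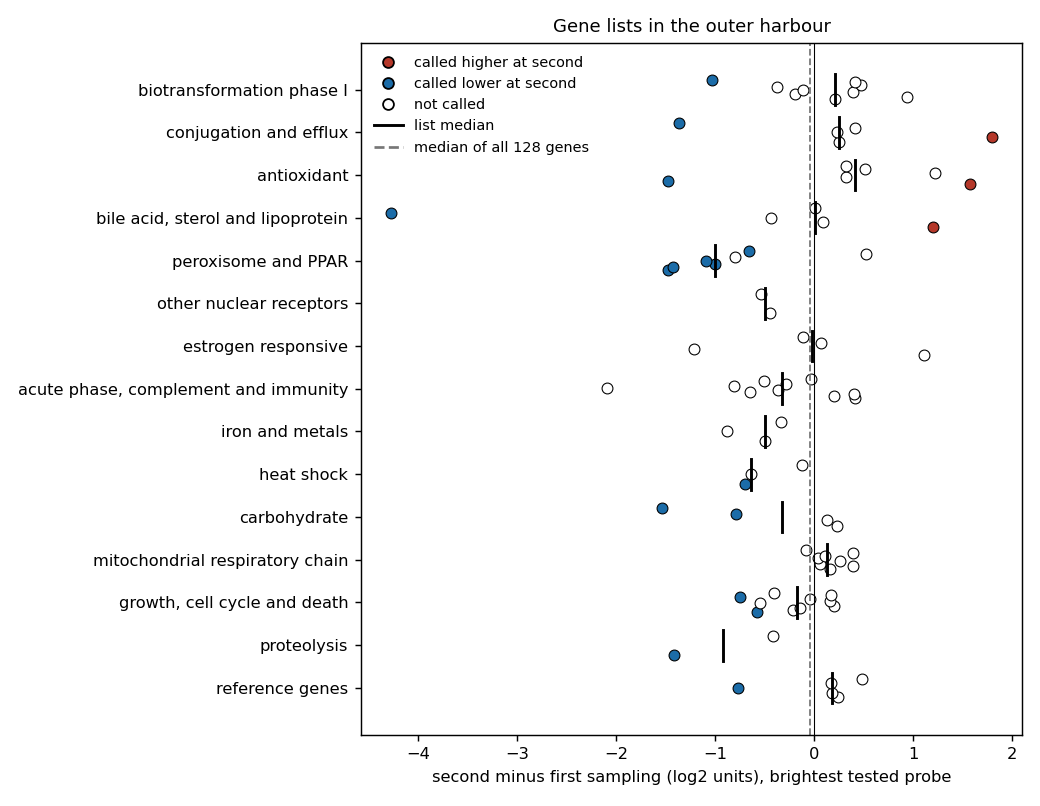
Difference between the second and the first sampling in the outer harbour (x axis, log2 units) for each tested gene of 15 lists (rows), by its brightest tested probe. Filled points were called, open points were not, short black bars are list medians, and the dashed line is the median of all 128 genes at -0.04. The peroxisome and PPAR row holds 5 of the called lower genes and has a median of -1.002.

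Markers of liver and other cells were read beside these results. All 8 hepatocyte markers on the array were well above background on all 12 arrays, and 1 of them rose (CYP7) while 2 fell (ApoE and IGFI), where 2.34% of all genes were higher and 13.3% lower. Trypsin, the only exocrine pancreas marker on the array, had levels from -2.74 to 3.97 with a median of 1.66 at the second sampling and from -3.69 to 1.23 with a median of -2.36 at the first. In 4 of 6 fish of the second sampling and in 1 of 6 of the first it was above 0, the array's 75th percentile, and it was not called (2.68 ± 1.46, limma adjusted p = 0.237). Of the 3 leukocyte markers none was called, where the same shares hold over all genes (2.34% higher and 13.3% lower). The MHC_II probes had differences from -2.10 to -1.50, and Mhc2, well above background on at most 3 of the 12 arrays, had -0.81. The 2 immunoglobulin sites went opposite ways (-0.37 and 0.93). MHC_II was at -9.90 and -10.58 in second sampling fish 6 and 7, against -5.67 to -3.39 in the others of that sampling and -6.60 to -1.93 at the first. Fish 6 and 7 were the second sampling arrays of slide 3. The part of these cells in the results was not tested.

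Setting the outer harbour beside the inner harbour shows which changes between samplings the sites differed in. In the inner harbour 17.9% of the probes were called higher and 7.56% lower. Of the 15 probes called higher in the outer harbour, 14 were also called higher in the inner and 1 lower. Of the 64 called lower in the outer harbour, 14 were called lower in the inner, 4 higher (all of PCD8) and 46 not at all. The sites' arrays share the row layout, so these counts are a description. Across the 476 probes, which are not independent, the changes at the sites correlated with r of 0.41 (Spearman's rho 0.38), and 57.8% had the same sign.

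The test of the difference itself, the outer harbour change minus the inner harbour change, called 58 probes in 17 genes (12.2%), 5 more positive (1.05%) and 53 more negative (11.1%) in the outer harbour, with 144 at an unadjusted p under 0.05. Catalase had -1.48 ± 0.24 in the outer harbour and -0.13 ± 0.24 in the inner (difference -1.35 ± 0.34, limma adjusted p = 0.0126). AOX had -1.43 ± 0.28 in the outer and 0.14 ± 0.28 in the inner harbour (difference -1.57 ± 0.40, limma adjusted p = 0.0126). The falls of PMP70 and RXR did not pass this test (differences -0.67 ± 0.34 and -0.15 ± 0.26).

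The changes of GST, CYP7 and UGT were more negative in the outer harbour than in the inner, and heme oxygenase and PCD8 went opposite ways. GST rose by 1.80 ± 0.20 in the outer and by 2.77 ± 0.20 in the inner harbour (difference -0.98 ± 0.28), and CYP7 by 1.20 ± 0.29 in the outer and 3.16 ± 0.29 in the inner (difference -1.96 ± 0.42). UGT, not called in the outer harbour at 0.25, had 2.23 in the inner (difference -1.98 ± 0.45, limma adjusted p = 0.00586). Heme oxygenase had 1.28 ± 0.44 in the outer and -2.04 ± 0.44 in the inner harbour (difference 3.33 ± 0.62, limma adjusted p = 0.0016). PCD8 had -0.75 ± 0.16 in the outer and 0.45 ± 0.16 in the inner harbour (difference -1.20 ± 0.23, limma adjusted p = 0.0016). Among these, heme oxygenase passed under all 7 other scalings, AOX under 6 and UGT under 5. Catalase, CYP7 and PCD8 passed under 2 and GST under 1. Cu-Zn_SOD, ApoE, phosphoenolpyruvate carboxykinase and cathepsin L had the same sign at both sites, and the difference between the sites did not pass for any of these 4.

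**Figure D5:**
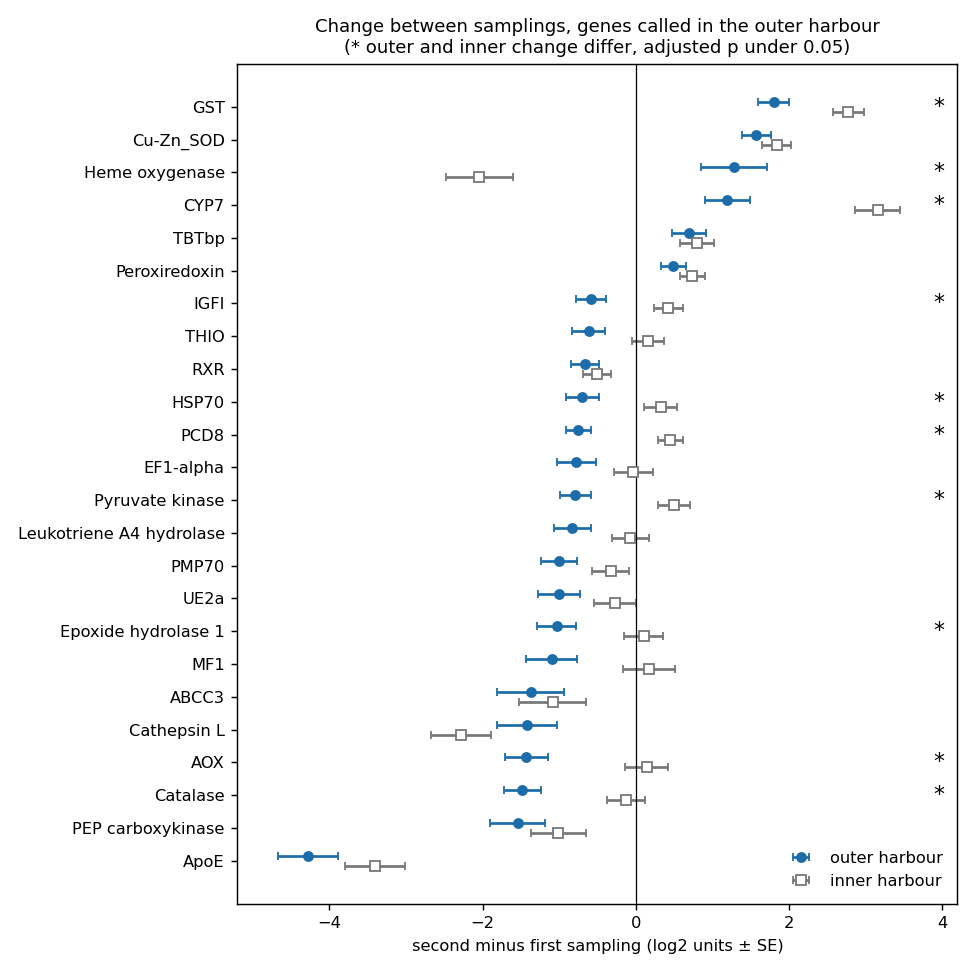
Difference between the second and the first sampling (x axis, log2 units, bars are SE, n = 6 and 6) for the 24 genes called in the outer harbour, in the outer harbour (filled circles) and in the inner harbour (open squares). A star marks genes whose change differed between the sites at an adjusted p under 0.05. Heme oxygenase lies at 1.28 in the outer and -2.04 in the inner harbour, and catalase and AOX lie near 0 in the inner harbour.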

How the data were processed

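The authors deposited the spot intensity values of each array as their scanner software gave them (Agilent Feature Extraction, version 9.5.3.1 in the file headers), with background subtracted and trends within the array removed. The deposited table of the same arrays holds log2 values, whose normalization is not given in the sources used here, and served as an alternative. Uneven and outlier spots were left out (40 to 125 per outer harbour array), no spot was saturated, and each probe's level is the mean log2 intensity of its remaining spots less the 75th percentile of its array. All 24 arrays entered a single model in limma 3.58.1 (R 4.3.3), in which each of the 4 groups had its own mean and all shared one spread. The fit was tested on simulated data. Named genes were up to 15 per direction with the largest differences among called probes (the brightest called probe of each gene), and the brightest tested probe of each list member. RXR, THIO and IGFI complete the called genes. The members and lists were chosen with earlier results of these data known, and the coagulation and virus induced lists were added last. Array measures were compared by exact permutation. Alternatives were 7 other scalings, other filters on dim probes, the slide or the replicate number as a block, array weights, the outer harbour arrays alone, and each array left out. The main model did not pair samples by replicate number.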

Additional observations from a re-analysis of the deposited data

Results flagged for a closer look

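In 7 of 182 combinations of gene and group, 1 fish stood away from the other 5 of its group. Chance gives such a gap in about 1 in 20 groups. At the second sampling these were beta-actin in fish 6 (0.81, nearest 1.49), MF1 in fish 2 (-8.53, nearest -6.86), the estrogen receptor ERb in fish 5 (-6.17, nearest -6.76), PPARg in fish 5 (-2.46, nearest -3.06) and cyclin_G1 in fish 2 (-0.44, nearest 0.24). At the first they were the immunoglobulin in fish 5 (-2.72, nearest -3.96) and PMP70 in fish 4 (-3.66, nearest -4.51). The array of second sampling fish 4 likewise stood away with 371 probes well above background (nearest 425).

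For 17 genes the change between samplings differed between the outer and the inner harbour in limma's test of the difference. The outer harbour change minus the inner harbour change was -1.57 for AOX, -1.35 for catalase, -1.45 for MF1 (1 of 4 probes), -1.96 for CYP7, -0.98 for GST, -1.98 for UGT and -1.14 for epoxide hydrolase 1. It was -1.04 for AHR2 (1 of 4 probes), -1.15 for HSC70 (3 of 4), -1.03 for HSP70, -1.01 for IGFI, -1.20 for PCD8, -1.28 for pyruvate kinase, -1.28 for transferrin and -1.09 for VEGF. It was positive for heme oxygenase (3.29 on its brightest probe, 4 of 4 called) and choriogenin L (4.87, on 1 of 4 probes). That choriogenin L probe was well above background in 1 of 6 outer harbour fish at each sampling. In the inner harbour it was so in 0 of 6 at the second and 5 of 6 at the first. Its change was 0.08 in the outer and -4.79 in the inner harbour, so 4.87 rests on the inner harbour and no size is resolved. AHR2, epoxide hydrolase 1, MF1 and VEGF passed under no other scaling. HSC70, HSP70, pyruvate kinase, transferrin and GST passed under 1 of the 7 others. IGFI, PCD8, catalase and CYP7 passed under 2 and choriogenin L under 3. UGT passed under 5, AOX under 6 and heme oxygenase under all 7.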

How the results depend on the processing

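The scaling of the arrays mattered most. Against 15 probes called higher and 64 lower, quantile normalization gave 28 and 45, the array median 41 and 33, the 75th percentile of detected probes 28 and 59, the median of detected probes 114 and 36, spike-ins 8 and 56, normexp 13 and 43 and the deposited values 29 and 47. Without a filter on dim probes 64 were higher, and with array weights 33. The 58 probes whose change differed between sites became 14, 30, 27, 31, 11 and 13 under quantile normalization, the array median, the 75th percentile and median of detected probes, spike-ins and the deposited values, and 93 with array weights. The 5 peroxisome list genes called lower became 3 under quantile normalization, the array median, the median of detected probes, normexp and the deposited values. They became 4 under the 75th percentile of detected probes and spike-ins. Leaving out each outer harbour array gave 12 to 23 higher (23 without first sampling fish 5), 48 to 66 lower, 49 to 64 differing between sites and 4 to 5 peroxisome list genes. Of the 24 called genes 14 kept their call whichever array was left out, 24 with slide as a block and 21 with the outer harbour arrays alone, and 23 kept their sign within all 3 slides. Leukotriene A4 hydrolase had 0.048 with normexp and TBTbp -0.17 within slide 3. Of the 104 genes not called, 26 were called under at least 1 other scaling and 65 changed sign under at least 1. The cause was not tested. Samples that share a replicate number (2 to 5) correlated between -0.10 and 0.10 in their deviations from the group means, and none best with its own number. No pairing by number was seen, which so few shared numbers cannot settle. With the replicate number as a block 12 probes were higher, 56 lower and 41 differed between sites, and 16 of the 24 genes were called.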

Other observations

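Genes of clotting and iron handling were not called between the samplings. The fibrinogen chains Beta-Fibrinogen (0.10 ± 0.15) and Fibrinogen_G (0.05 ± 0.15) and prothrombin (-0.11 ± 0.17) had small standard errors, and their 6 fish at each sampling overlapped. Hepcidin, the peptide hormone of iron, varied more, with levels from 1.76 to 3.84 at the second sampling and from 1.61 to 6.36 at the first, and haptoglobin, which binds free haemoglobin, had levels from 1.16 to 2.37 at the second sampling and from 0.42 to 4.42 at the first. Neither was called (-0.88 ± 0.80 and -0.65 ± 0.45). Over all 476 probes the median SD between fish was 0.35 log2 units at the second sampling and 0.45 at the first, and 34.7% of the probes spread more at the second.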
